A study of Mus musculus with 4 samples.

Results

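The miR-338 and miR-3065 locus is a single stretch of mouse chromosome 11 that is annotated with a miRNA precursor on each strand. Its members were taken by name from the deposited read table, as every arm of miR-338 and of miR-3065. Of the 816 miRNA names in the table, 2 belonged to the locus, miR-338-3p and miR-338-5p, and both were listed in all 4 libraries. The locus was selected on the measured reads of these libraries, with the difference of the miR-338 arms between basal and luminal cells in view, so that difference is given as a description. No arm of miR-3065 was listed in any library, so the antisense side counts as 0 reads throughout.

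Small RNA was profiled in basal and luminal cells sorted from the prostate of wild-type male C57Bl/6 mice aged 10 weeks, with 2 libraries per cell type and no allele or treatment in either group. Both sorts took Sca-1 positive, lineage negative cells, and the basal gate was high and the luminal gate low for CD49f, the integrin alpha 6 subunit. The labels say neither whether libraries of a group came from separate animals nor how many animals were pooled, and the spread between them may be technical. miRNA reads per library ranged from 1501898 to 3278294. Levels are given as RPM, reads scaled to 1000000 miRNA reads after TMM, a trimmed-mean scaling between libraries. A single miRNA, miR-200c-3p, held 22.26% and 46.93% of miRNA reads in basal replicates 1 and 2. In luminal replicates 1 and 2 it held 68.55% and 71.65%, so levels of other miRNAs depend on the scaling. The basal marker miR-205-5p was at 51956 and 80905 RPM in the basal libraries, replicates 1 and 2, against 6686 and 4605 RPM in the luminal ones, and the luminal marker miR-148a-3p at 2870 and 3948 RPM against 25381 and 20233 RPM. Both markers were chosen with earlier results of these data known, so they are no independent check of the sort.

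A miRNA precursor is a short hairpin that is cut into a duplex, of which usually one arm is kept by an Argonaute protein and the other is mostly discarded. The kept arm finds its targets through its seed, bases 2 to 8 from the 5′ end. miR-338 lies within a gene for a kinase, Aatk (apoptosis-associated tyrosine kinase), that is best known from neurons, and in the rodent nervous system miR-338 is known for promoting, together with miR-219, the maturation of oligodendrocytes. miR-3065 is read from the opposite strand, so its arms are nearly the mirror complement of those of miR-338 and carry other seeds.

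The mature sequences set the strands apart and are shown with the seed in capitals (RefSeq, GRCm38.p6). No sequence for miR-3065-3p was used here.
miR-338-3p: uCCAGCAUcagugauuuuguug
miR-338-5p: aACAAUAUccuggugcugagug
miR-3065-5p: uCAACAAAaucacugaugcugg
On GRCm38.p6, miR-338-3p occupies chr11:120014781-120014802 and miR-338-5p chr11:120014816-120014837 on the minus strand, and miR-3065-5p chr11:120014780-120014801 on the plus strand. Each of the 3 arms has 22 bases. Of the 22 bases of miR-338-3p, an unbroken run of 21, from base 2 to base 22, is the reverse complement of miR-3065-5p, so the seed of each arm pairs with the far end of the other. None of 1676 other mouse mature miRNAs in the RefSeq table had the seed of any of the 3 arms.

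The precursors are shown to place the arms, which are in capitals.
Mir338: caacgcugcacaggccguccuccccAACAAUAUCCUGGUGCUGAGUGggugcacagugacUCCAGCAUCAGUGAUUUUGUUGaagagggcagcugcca
Mir3065: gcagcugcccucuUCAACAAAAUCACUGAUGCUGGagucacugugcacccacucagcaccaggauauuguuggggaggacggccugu
Mir338 spans chr11:120014765-120014862 on the minus strand, the strand of Aatk, and Mir3065 spans chr11:120014767-120014853 on the plus strand. All 87 bases of Mir3065 lie opposite Mir338. Both sit in intron 7 of the 14-exon transcript Aatk-201 (GENCODE M21, intron at chr11:120013735-120015458) and overlap no exon of Aatk.

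miR-338-3p was higher in both luminal libraries than in both basal libraries, and it was far higher in one luminal library than in the other. Basal replicate 1 had 176 reads and basal replicate 2 had 526, while luminal replicate 1 had 6379 and luminal replicate 2 had 460. In RPM, these were levels of 65.7 and 156.6 in basal and 4878 and 373.8 in luminal libraries. On both scales the groups did not overlap. In RPM the lower luminal library lay only 2.39 times above the higher basal library, while luminal replicate 1 lay 13.0 times above luminal replicate 2. In raw reads the groups did overlap, with 526 in basal replicate 2 and 460 in luminal replicate 2. They also overlapped per Cali read, a read listed under a name that is not a miRNA. Basal replicate 1, with 771214 Cali reads, then lay above luminal replicate 2, with 2201916. Among all listed miRNAs, miR-338-3p ranked at number 22 of 573 in luminal replicate 1 and at number 87 of 445 in luminal replicate 2, and at numbers 150 of 547 and 117 of 548 in basal replicates 1 and 2.

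miR-338-5p, the opposite arm of the same hairpin, followed the same order of libraries at a lower level. Basal replicate 1 had 8 reads and basal replicate 2 had 86, while luminal replicate 1 had 545 and luminal replicate 2 had 81. Its levels were 2.99 and 25.6 RPM in basal and 416.8 and 65.8 RPM in luminal libraries. The groups again did not overlap, and the lower luminal level was 2.57 times the higher basal one. In raw reads they did overlap, since basal replicate 2, the deepest library, had 86 reads and luminal replicate 2 had 81.

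**Figure D1:**
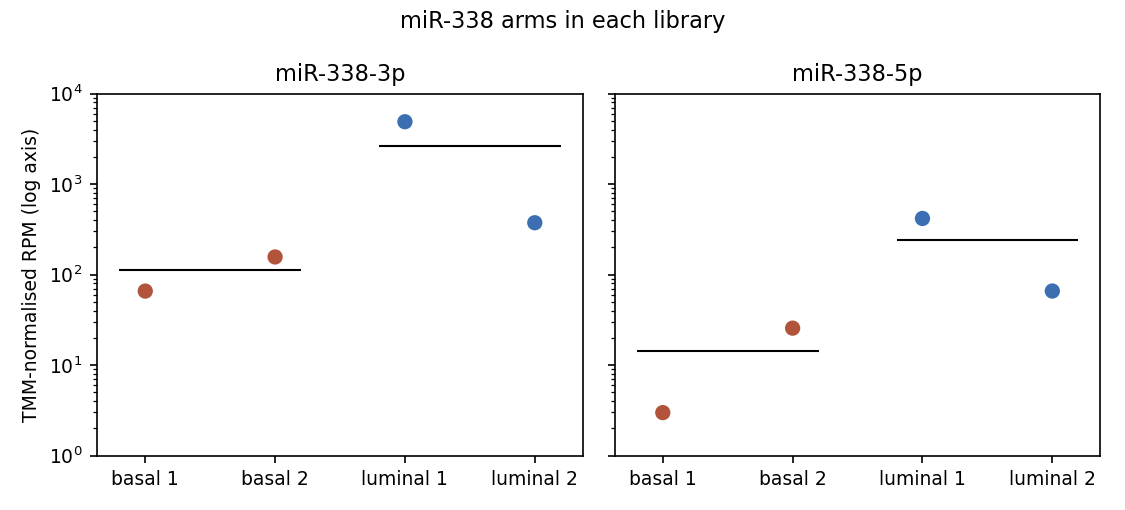
TMM-normalised RPM of miR-338-3p (left) and miR-338-5p (right) in each library on a log axis, with basal libraries in red, luminal libraries in blue and a bar at the mean of each pair. Luminal replicate 1 is highest for both arms, at 4878 and 416.8 RPM, and luminal replicate 2 is closer to basal replicate 2 than to it.

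The mean level of miR-338-3p was 2626 ± 3185 RPM in luminal and 111.2 ± 64.2 RPM in basal libraries (SD, n = 2 each), so the luminal SD exceeded the luminal mean. In the model over all miRNAs its basal over luminal log2 fold change was -4.56 (standard error 0.96), which is 23.6-fold higher in luminal cells. For miR-338-5p the means were 241.3 ± 248.2 RPM in luminal and 14.3 ± 16.0 RPM in basal libraries (SD, n = 2 each). Its log2 fold change was -4.07 (standard error 1.11), or 16.7-fold. The arms were chosen with this contrast known, so no test is given for it. Of 345 miRNAs tested with edgeR, 13 (3.77%) were called higher in luminal cells and 15 (4.35%) in either direction, a count that ran from 9 without basal replicate 1 to 61 without luminal replicate 1 and was 27 without luminal replicate 2. Levels without overlap and higher in luminal libraries, as in both arms, were found in 84 of the 345 miRNAs (24.3%), and levels without overlap in either direction in 178 (51.6%).

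The size of the difference depended on luminal replicate 1, which held 83.8% of all 8261 miR-338 reads. Without it, the log2 fold change of miR-338-3p was -1.71 and that of miR-338-5p -2.17. Without basal replicate 2, that of miR-338-5p was -6.28, since basal replicate 1 then stood alone with 8 reads. A single remaining library is assumed in these fits to vary as the other group does. In bulk samples, a change in how many cells carry a miRNA and a change in its amount per cell cannot be told apart.

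The gap between the luminal libraries was 3.70 on the log2 scale for miR-338-3p and 2.65 for miR-338-5p (RPM with a pseudocount of 0.5), against a median size of 1.08 over the 345 miRNAs. By size of this gap, miR-338-3p ranked at number 31 and miR-338-5p at number 67 of the 345. Between the basal libraries, replicate 2 was above replicate 1 by 1.25 for miR-338-3p, which ranked at number 110, and by 2.90 for miR-338-5p, which ranked at number 22, against a median size of 0.73. Each of these gaps rests on 1 library per side and has no test.

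**Figure D2:**
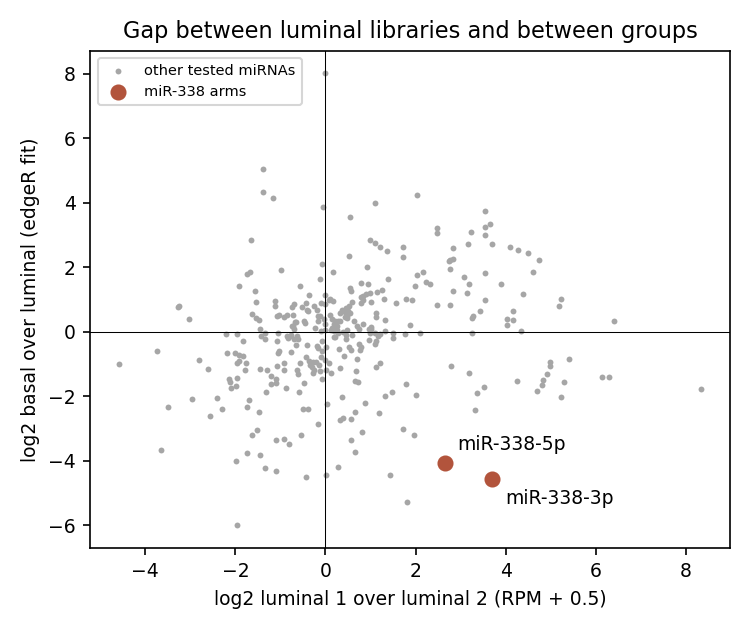
Each point is 1 of the 345 tested miRNAs, with the log2 ratio of luminal replicate 1 over luminal replicate 2 (RPM with a pseudocount of 0.5) on the horizontal axis and the fitted log2 fold change of basal over luminal on the vertical axis. The miR-338 arms, in red, lie at 3.70 and 2.65 to the right and at -4.56 and -4.07 below 0.

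The balance between the arms does not depend on how libraries are scaled, and it did not follow the cell type. The 3p arm held most reads in all 4 libraries, 7541 of 8261 in all. The 5p arm held 4.35% of miR-338 reads in basal replicate 1 (95% exact Clopper-Pearson interval 1.90 to 8.39) and 14.1% in basal replicate 2 (11.4 to 17.1). It held 7.87% in luminal replicate 1 (7.25 to 8.53) and 14.97% in luminal replicate 2 (12.1 to 18.3). The groups overlapped, and the intervals of the replicates within each group did not. These intervals cover counting error only.

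The 5p share averaged 9.20% ± 6.86 over the basal pair and 11.4% ± 5.02 over the luminal pair (SD, n = 2 each), and the difference was smaller than the spread within either group (2-sided exact permutation test, p = 0.667, where 2 against 2 cannot give less than 0.333). The sign of this difference turned without basal replicate 1 (basal minus luminal 2.63 percentage points) and without luminal replicate 2 (1.33), against -2.22 with all libraries. In both cell types the 5p share was higher in replicate 2. Of 98 precursors with both arms listed and at least 50 reads in every library, the minor arm had a higher share in replicate 2 in 47 for the basal pair, in 36 for the luminal pair and in 14 for both. This comparison was added after the shares of miR-338 had been seen.

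**Figure D3:**
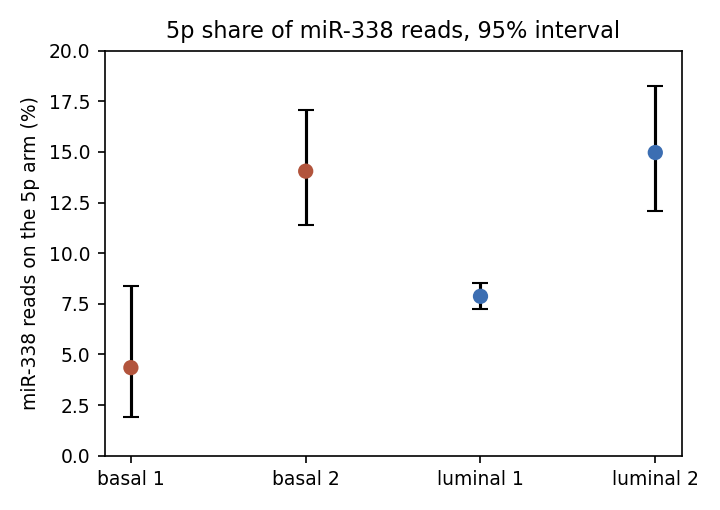
Share of miR-338 reads on the 5p arm in each library, in percent, with basal libraries in red, luminal libraries in blue and bars for the 95% exact interval of counting error. The shares of 4.35% and 14.1% in basal libraries overlap the 7.87% and 14.97% in luminal libraries, and replicate 2 is higher in each cell type.

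No reads were listed under a name of the antisense miRNA. miR-3065 had 0 reads in each library, against 184 and 612 miR-338 reads in the basal libraries and 6924 and 541 in the luminal ones. The miRNA release searched was not stated, so the miR-3065 names may not have been searched, and a count of 0 would then give no limit. If they were searched, a count of 0 allows up to 3 reads. That is 1.62 and 0.915 of every 1000000 miRNA reads in the basal and 1.89 and 1.997 in the luminal libraries. Set against miR-338, the limit was tightest in luminal replicate 1, at 0.0433% of the miR-338 reads there, and widest in basal replicate 1, at 1.63%. Because both groups were at 0, the share of the locus on the miR-3065 strand was 0 in every library and gave no difference to test.

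The sources used here do not say how the authors' search treated strand. miR-338-3p and miR-3065-5p are reverse complements over 21 bases, so a search of both strands could place a read of one under the name of the other. How many miR-3065 reads may lie within the miR-338 counts was not tested. The limits above cover counting error only, for reads under the miR-3065 name. Other precursors that face each other on opposite strands also had reads almost entirely on one side. The RefSeq table held 23 such pairs besides this one, of which 16 had reads, 6 of them on both sides, counting older names that RefSeq gives as synonyms. In the 10 pairs with at least 100 reads on the stronger side, the weaker side held at most 0.0919% of the reads of the pair. A weaker side without reads had no name listed in any library, so it too may not have been searched. How the search treated strand is equally open for these pairs. Among these, the pairs of Mir9-1 and Mir9-2 rest on the same 835 reads. An example is Mir24-2, the precursor of a broadly expressed miRNA, with 333987 reads against 2 for Mir3074-2, where miR-24-3p reads cannot be split between the Mir24 copies. Another is Mir126a, an endothelial miRNA precursor, with 278502 reads against 2 for Mir126b. The other pairs with reads on both sides were Mir24-1 and Mir3074-1 (332193 and 4 reads, largely the same reads as for Mir24-2), Mir142 and Mir142b (1087 and 1), Mir299a and Mir299b (59 and 1) and Mir337 and Mir3544 (4 and 3).

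The longest unbroken run that miR-338-3p shares with another mature miRNA is 13 bases, with miR-7a-5p, a miRNA of neural and endocrine cells, and that run, in capitals here, lies outside both seeds.
miR-338-3p: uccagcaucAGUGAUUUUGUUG
miR-7a-5p: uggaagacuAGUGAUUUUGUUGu
miR-7a-5p had 34 and 16 reads in the basal pair and 23 and 72 in the luminal pair. Whether reads of one of these miRNAs were counted under the name of the other was not tested. For miR-338-5p the longest such run was 9 bases.

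Among the 343 other tested miRNAs, those with levels most like miR-338-3p were found by the distance between log2 RPM values centred on their mean over the 4 libraries. The median distance was 4.92. miR-338-5p was nearer than any of them, at 1.44. Next came miR-434-3p at 1.98 and miR-541-5p at 2.16, both from the imprinted Dlk1-Dio3 cluster, then miR-5126 at 2.17, miR-9-5p at 2.19 and miR-335-3p, from the imprinted Mest gene, at 2.22.

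These neighbours had few reads. miR-434-3p had 11 and 14 reads in the basal and 68 and 19 in the luminal pair. miR-9-5p, a miRNA of neural progenitors and neurons, had 3 and 24 reads in the basal and 338 and 91 in the luminal libraries. All 5 had their highest level in luminal replicate 1, and miR-5126 overlapped between groups, at 7.74 RPM in basal replicate 2 and 5.69 RPM in luminal replicate 2. With Pearson's correlation over the 4 libraries as the measure, none of the 5 nearest miRNAs were the same.

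**Figure D4:**
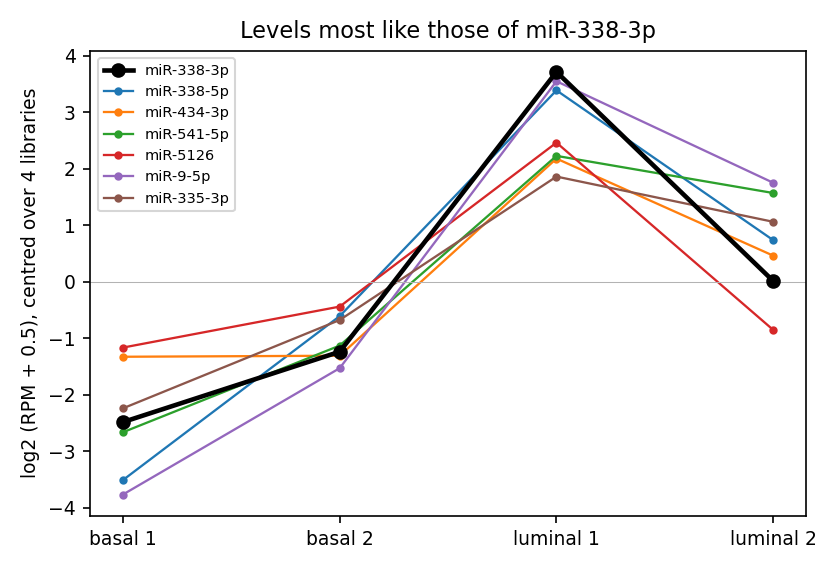
Log2 RPM (pseudocount 0.5), centred on each miRNA's mean over the 4 libraries, for miR-338-3p in black, miR-338-5p and the 5 nearest other miRNAs, where lines only link the values of 1 miRNA. All 7 peak in luminal replicate 1, and miR-338-5p lies closest to miR-338-3p.

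Since miR-338 is best known from the nervous system, it was set beside a list of 18 neural, glial and neuroendocrine miRNAs. Of these, 14 were listed and 9 passed the filter on low counts. Over all miRNAs, edgeR called 2 of the 9 higher in luminal cells, namely miR-9-5p (adjusted p = 0.0128) and miR-375-3p (adjusted p = 0.0128), where 3.77% of all miRNAs were so called. The other 7 did not pass, and 7 of the 9 had log2 fold changes below 0. miR-375-3p was also chosen as a marker of luminal epithelium, beside miR-148a-3p. The call of miR-9-5p ended without basal replicate 1 (edgeR adjusted p = 0.114), and that of miR-375-3p without basal replicate 1 (0.0522), basal replicate 2 (0.113) or luminal replicate 2 (0.123). Both calls also ended with library totals alone (edgeR adjusted p = 0.0809 and 0.107) and when scaled to the Cali reads (0.161 and 0.605, with the log2 fold change of miR-375-3p then at -1.14), and that of miR-9-5p with a minimum mean of 10 RPM (0.0511). The median log2 fold change of the 9 was -1.38, against -0.01 over all 345.

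Of miR-219, the glial partner of miR-338, few reads were found. miR-219a-5p and miR-219a-2-3p had 0 reads in every library, miR-219b-5p had 1 read in basal replicate 2, and miR-219a-1-3p, which is not on the list, had 8 and 0 reads in the basal and 16 and 27 in the luminal pair. The neuronal miR-124-3p had 3 and 6 reads in the basal and 6 and 0 in the luminal libraries, and miR-129-5p had 0 in all 4. miR-375-3p, known from endocrine and other secretory cells, had 957 and 2969 RPM in luminal replicates 1 and 2, the opposite order to miR-338-3p. Of the other tested members with at least 50 RPM in a library, miR-9-3p was at 182.8 and 46.3 RPM in luminal replicates 1 and 2 and at 0 and 24.7 RPM in basal replicates 1 and 2. miR-138-5p reached 64.2 RPM, miR-128-3p 66.6 RPM and miR-7a-5p 58.5 RPM, each in luminal replicate 2, and miR-132-3p 197.1 RPM in basal replicate 2. Of the 9, 3 were higher in luminal replicate 1 than in luminal replicate 2, as the miR-338 arms were. Over all 345 tested miRNAs, 194 were higher in luminal replicate 1. The summed level of the list was 425 and 498 RPM in basal and 1600 and 3458 RPM in luminal libraries. Most of the luminal sum was miR-375-3p, and without it the sum was 195 and 304 RPM in basal and 643 and 489 RPM in luminal libraries, so the order of the luminal pair turned.

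Markers of other cells differed between the libraries too. A lineage negative gate is meant to leave out blood cells and commonly endothelial cells, but the labels do not name its antibodies. Both endothelial miR-126a arms were listed, and their summed level was 55057 and 34556 RPM in the basal pair and 10579 and 966 RPM in the luminal pair, so it was higher in luminal replicate 1 than in luminal replicate 2, as for miR-338, but highest in basal libraries. All 6 smooth muscle and fibroblast miRNAs were listed, and their sum was 1630 and 2603 RPM in basal and 10708 and 13601 RPM in luminal libraries. Without miR-145a-5p, the most abundant of them, it was 1417 and 1424 RPM against 6181 and 3915 RPM. All 6 had log2 fold changes below 0 (list median -1.70, against -0.01 over all miRNAs). These values rest on TMM, and scaling to the Cali reads shifted the median over all miRNAs upward by 1.99 on the log2 scale. Of the 6, edgeR called 2 higher in luminal cells, where 3.77% of all miRNAs were so called. All 5 leukocyte miRNAs were listed, with sums of 3595 and 6570 RPM in basal and 3149 and 2145 RPM in luminal libraries. Most of these sums was miR-150-5p, without which they were 162 and 281 RPM in basal and 319 and 965 RPM in luminal libraries, and 4 of the 5 had log2 fold changes below 0 (list median -1.69, against -0.01 over all miRNAs). Of 4 erythroid miRNAs, 3 were listed under the names searched, with sums of 171 and 3046 RPM in basal and 207 and 646 RPM in luminal libraries. These leave out miR-3107-5p, whose precursor RefSeq also names mir-486b, with 18 and 1203 reads in the basal and 64 and 176 in the luminal pair. The part of these cells in the level of miR-338 was not tested.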

How the data were processed

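The authors deposited raw counts of reads per miRNA name, one list per library. Only the title of the table names a search tool, BLAST. Its settings, the miRNA release and the genome build were not stated in these sources. A name missing from a list was taken as 0 reads. Cali_7, Cali_12, Cali_24 and a 5' adaptor, which took 29.5% to 62.4% of listed reads, were left out of totals. Of the 816 miRNA names, 679 matched the RefSeq table, which gave sequences.

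Counts were fitted with edgeR 4.0.16 in R 4.3.3 (TMM factors, filterByExpr with at least 10 reads and a total of 15, quasi-likelihood test of cell type, 2-sided, Benjamini-Hochberg over 345 miRNAs, threshold 0.05); both listed arms passed the filter. The standard error is the log2 fold change divided by the root of the F statistic. RPM is per 1000000 miRNA reads after TMM. Alternatives were other scalings and filters, DESeq2 1.42.0, a replicate block and leaving out each library. The members, the marker lists (older names were used for miR-142 and miR-486) and the rules for naming were chosen with earlier results of these data known. Named miRNAs are the members, the 5 nearest by level, miRNAs sharing a seed, antisense pairs with reads on both sides, list members called or with at least 50 RPM in a library, and the sort markers. Some at or near 0, miR-219a-1-3p and miR-3107-5p were named after their values were seen, and miR-200c-3p for its share of the reads.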

Additional observations from a re-analysis of the deposited data

How the results depend on the processing

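The log2 fold change of basal over luminal stayed below 0 under all 13 alternatives for both arms, from -5.42 to -1.71 for miR-338-3p and from -6.28 to -2.17 for miR-338-5p. In the runs without 1 library, the same limits applied, and without any change of libraries the smallest sizes were -2.86 and -2.88, both with scaling to the Cali reads. That scaling shifted the median over all miRNAs by 1.99 on the log2 scale, library totals alone by 0.569 and upper-quartile factors by 0.317. The log2 ratio of luminal replicate 1 over 2 for miR-338-3p was 3.54 with scaling to the Cali reads, against 3.70 in the main fit. The 5p share difference ran from -7.07 to 2.63 percentage points without 1 library, with the sign turned in 2 of 4 runs (1.33 and 2.63), and the miR-3065 share was 0 in all 4.

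Over all miRNAs, 15 were called, against 2 with library totals alone, 3 with scaling to the Cali reads (3 basal, 0 luminal), 5 with a minimum mean of 10 RPM, 33 in DESeq2, and 9 to 61 without 1 library. The 61 were found without luminal replicate 1, where 33 were higher in basal and 28 in luminal cells; the 9 without basal replicate 1; and 27 without luminal replicate 2. With a replicate block there were 23; the labels do not say that a number pairs samples, and the deviations of same-numbered libraries from their group means correlated at 0.152. The choice of Pearson's correlation left 0 of the 5 nearest miRNAs. The causes were not tested. The adjusted p of miR-9-5p ranged up to 0.161, of miR-375-3p up to 0.605, of miR-148a-3p up to 0.687 and of miR-205-5p up to 0.0719 over their alternatives. Depth limits miR-338-5p, with 8 reads in basal replicate 1, and miR-3065, for which only an upper limit on reads under its own name can be given. If that name was not searched, no limit holds.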
